A study of Rattus norvegicus with 12 samples.

Results

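The genes of iron and heme handling described here were chosen by name: Tfrc, Tf, Fth1, Slc40a1, Hamp, Alas1, Alas2, Fech and Slc11a2. Rows carrying these names were found for 7 of the 9 genes among the 30560 genes of the rat count table, and all 7 had enough counts to be tested. Slc40a1, the iron exporter ferroportin, and Alas2, the red cell form of the first enzyme of heme synthesis, were not analysed here. The hearts came from male Wistar rats operated at 7 weeks of age. In the MI and MI + UA rats the left anterior descending coronary artery was tied off for good, and the Sham rats underwent the same surgery with no ligature placed. MI + UA rats received urolithin A (UA), a compound that gut bacteria make from ellagitannins and that is studied as an inducer of mitophagy, by daily gavage for 8 weeks, while Sham and MI rats received the vehicle, carboxymethylcellulose. RNA was taken from formalin-fixed, paraffin-embedded sections of the middle region of the heart, with 1 library per rat and 4 rats per group.

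Iron circulates bound to transferrin (Tf), enters cells with the transferrin receptor (Tfrc), and is carried out of the endosome by the divalent metal transporter Slc11a2. Inside the cell it is stored in ferritin, whose heavy chain is Fth1, or passed to mitochondria, where Alas1 catalyses the first step of heme synthesis and ferrochelatase (Fech) the last, the insertion of iron into protoporphyrin. Hepcidin (Hamp), a peptide hormone made mainly in the liver and also in cardiomyocytes, brings about the degradation of ferroportin and so limits iron export. The heart depends on this supply for its cytochromes, myoglobin and iron-sulfur proteins.

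Levels are given as CPM, library-size normalized read counts after TMM scaling, which allow a gene to be compared between rats but not with another gene, since they are not divided by gene length. Reads on genes numbered from 6228706 to 19031695 per library, and 13 mitochondrially encoded genes took 50.2% to 58.6% of them. Genes took 46.9% to 48.3% of the counted reads in Sham and 43.3% to 44.8% in MI, without overlap, and 42.9% to 47.2% in MI + UA. The label of rat 66 places it in MI + UA, where it was kept, while the echocardiography table of the study lists it among the MI rats. Where counting rat 66 in MI ended a call or moved a fold change of MI + UA versus MI by over 1.5 times, that value stands beside the result.

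Fech fell after infarction, and it was the member with an adjusted p under 0.05 in MI versus Sham. It stood at 63.2, 64.7, 68.1 and 75.4 CPM in the Sham rats, at 47.8, 52.2, 54.2 and 56.4 CPM in the MI rats, and at 49.2, 52.0, 54.0 and 62.5 CPM in the MI + UA rats. Every MI rat and every MI + UA rat lay below every Sham rat. Sham averaged 67.8 ± 5.44 CPM and MI 52.6 ± 3.62 CPM (SD, n = 4 each), and the log2 fold change was -0.36 (standard error 0.09, edgeR adjusted p = 0.0132). Across all genes tested in this comparison, 11.4% had an adjusted p under 0.05 and 5.53% were lower in MI, beside 1 of the 7 members. The call was lost without Sham rat 32 (edgeR adjusted p = 0.0580) and without MI rat 61 (edgeR adjusted p = 0.0539), with the direction kept.

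In MI + UA, Fech averaged 54.4 ± 5.74 CPM (SD, n = 4), and its difference from Sham was -0.31 on the log2 scale (standard error 0.09, edgeR adjusted p = 0.0365). Against MI, the MI + UA rats differed by 0.05 on the log2 scale, with a 95% interval from -0.14 to 0.24 (edgeR adjusted p = 1.00), and 3 of the 4 rats lay within the range of the MI rats. The exception was MI + UA rat 29, at 62.5 CPM, which was above all MI rats. The difference from Sham was past the threshold without Sham rat 12 or MI + UA rat 29, but not without any of the other 6 rats (Sham rats 17, 32 and 38, MI + UA rats 58, 64 and 66), where the edgeR adjusted p ran from 0.0515 to 0.130. With rat 66 counted in MI it was 0.0585.

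A stretch of the Fech promoter close to the start of transcription is shown because Fech was the member that differed from Sham in both infarcted groups. It lies on chr18:60248546-60248675 of the GRCr8 build, minus strand, and runs from 150 to 21 bases before the RefSeq start. Capitals mark AGATAA, the motif of GATA factors (on the other strand, 135 bases before the start), and GGGCGG, the GC box read by Sp1 and related factors (at 74, 51 and 31 bases, the outer ones on the other strand).
Fech: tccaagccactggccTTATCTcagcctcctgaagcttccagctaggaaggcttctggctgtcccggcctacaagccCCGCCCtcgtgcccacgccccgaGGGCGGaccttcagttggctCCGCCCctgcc
Over the 250 bases before the start, searched on both strands, AGATAA occurred in 10.3% and GGGCGG in 30.5% of the 33469 RefSeq promoters. Besides Fech, AGATAA was present in the promoters of Hamp and Alas2, and GGGCGG in those of Slc11a2 and Slc40a1. These matches describe letters only and no binding was measured.

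Alas1, the housekeeping form of the rate-limiting enzyme at the start of the pathway, did not follow Fech past the test. Its levels were 66.9, 91.4, 92.2 and 94.1 CPM in Sham, 73.0, 84.7, 85.3 and 86.5 CPM in MI, and 78.8, 80.0, 85.5 and 92.8 CPM in MI + UA. Sham rat 12 lay well under the other Sham rats, and those other 3 were above every MI rat. The log2 fold change in MI versus Sham was -0.06, with a 95% interval from -0.28 to 0.15 (edgeR adjusted p = 0.779), and without Sham rat 12 it was -0.17 (edgeR adjusted p = 0.267). Against MI, the MI + UA rats differed by 0.04 on the log2 scale (95% interval from -0.17 to 0.25), and by 0.02 with rat 66 counted in MI.

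As a description with no test, Alas1 collected 105.8 to 141.3 reads for every 100 reads of Fech in Sham, 134.7 to 178.3 in MI and 148.4 to 160.3 in MI + UA. The MI + UA rats all exceeded the Sham rats in this ratio, while the MI rats overlapped them.

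Tf, the plasma iron carrier, rose in MI + UA compared with Sham. It stood at 24.9, 25.7, 26.4 and 26.5 CPM in Sham, at 29.1, 30.6, 30.7 and 30.9 CPM in MI, and at 27.6, 32.5, 34.1 and 36.5 CPM in MI + UA. All infarcted rats lay above all Sham rats, and MI + UA rat 66 was the lowest of them. For MI versus Sham the log2 fold change was 0.23 (standard error 0.10, edgeR adjusted p = 0.147), which did not pass the threshold although the groups were separate. For MI + UA versus Sham it was 0.33 (standard error 0.10, edgeR adjusted p = 0.0329).

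With Tf and Fech, 2 of the 7 members passed in MI + UA versus Sham, where 9.44% of all genes tested did, 5.16% higher and 4.27% lower. The Tf call was lost when any rat other than rat 66 was left out of the comparison, namely Sham rats 12, 17, 32 and 38 and MI + UA rats 29, 58 and 64, with edgeR adjusted p from 0.0606 to 0.109, and it was lost when only the 2 groups were fitted (0.0558). Without rat 66 the log2 fold change was 0.41 (edgeR adjusted p = 0.00682). Against MI, Tf differed in MI + UA by 0.10 on the log2 scale (95% interval from -0.09 to 0.30, edgeR adjusted p = 1.00), and by 0.21 with rat 66 counted in MI. Leaving out 1 rat at a time moved this difference between 0.05, without MI + UA rat 64, and 0.18, without MI + UA rat 66.

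Tfrc, the receptor for iron-loaded transferrin, showed no separation of the groups. The Sham rats were at 21.1, 21.5, 22.4 and 22.6 CPM, the MI rats at 18.1, 20.8, 26.0 and 26.3 CPM, and the MI + UA rats at 21.96, 22.7, 26.2 and 26.7 CPM. The MI rats spread the widest, with a pair below and a pair above every Sham rat. MI versus Sham gave a log2 fold change of 0.05 (95% interval from -0.21 to 0.30, edgeR adjusted p = 0.875), which turned negative without MI rat 57 (-0.02) or MI rat 61 (-0.03). MI + UA versus MI gave 0.11 (95% interval from -0.13 to 0.35), or 0.02 with rat 66 counted in MI and 0.0079 without MI rat 89, and MI + UA versus Sham 0.15 (95% interval from -0.09 to 0.40, edgeR adjusted p = 0.504).

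The Tfrc promoter is shown for the motif it holds, ACGTG, the core of the hypoxia response element, since the pathway of hypoxia-inducible factors is known to act on this gene. The window is chr11:81690329-81690378 of GRCr8, minus strand, from 60 to 11 bases before the RefSeq start, and the capitals, which begin 31 bases before it, mark the motif.
Tfrc: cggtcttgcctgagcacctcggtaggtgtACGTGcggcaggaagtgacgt
ACGTG, which is also part of the longer E-box CACGTG, occurred on either strand in 16.6% of all promoters searched and in no other member with a RefSeq promoter entry (8 of 9, Fth1 lacking here).

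Slc11a2, the transporter that moves iron out of the endosome, was higher in every MI rat than in any rat of the other groups, without passing the test. Its levels were 16.8, 16.9, 18.3 and 18.8 CPM in Sham, 19.9, 20.0, 20.2 and 20.7 CPM in MI, and 13.9, 18.3, 18.5 and 18.5 CPM in MI + UA. The MI rats formed a narrow band, and MI + UA rat 58 lay far below the others of its group. The log2 fold change was 0.19 in MI versus Sham (95% interval from -0.04 to 0.42, edgeR adjusted p = 0.314).

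MI + UA versus MI gave a log2 fold change of -0.21 for Slc11a2 (95% interval from -0.43 to 0.01, unadjusted p = 0.0594 and adjusted p = 1.00, both from edgeR). It was the 1 member of 7 whose MI + UA and MI rats did not overlap, where 2.03% of genes at or above an average log2 CPM of 1 did not. In MI versus Sham, 3 of the 7 members did not overlap (Fech, Tf and Slc11a2), beside 20.8% of those genes, and in MI + UA versus Sham 2 of 7 (Fech and Tf), beside 18.7%. Without MI + UA rat 58 the log2 fold change from Sham to MI + UA went from -0.02 to 0.06, and without Sham rat 17 it was 0.01. Against MI the difference went from -0.21 to -0.13 without MI + UA rat 58.

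**Figure D1:**
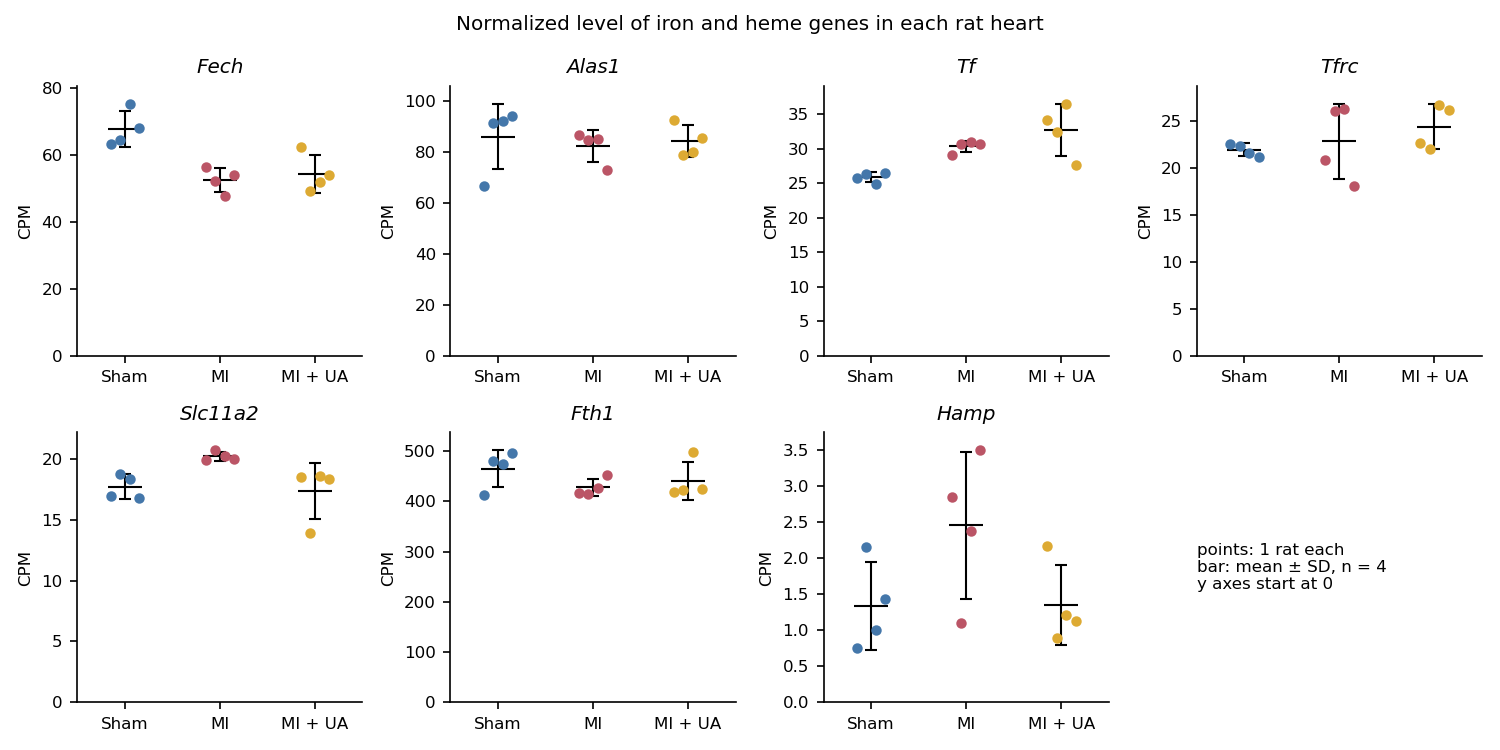
Level of each of the 7 genes (CPM, linear axes starting at 0) in the 4 Sham, 4 MI and 4 MI + UA rats, with 1 point per rat and bars for the mean ± SD. Fech is lower and Tf higher in all infarcted rats than in all Sham rats, Slc11a2 is highest in the 4 MI rats, and the groups overlap for Alas1, Tfrc, Fth1 and Hamp.

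Fth1, the ferritin heavy chain, which oxidises and stores iron, did not pass the test in any comparison. It was at 412, 474, 480.0 and 496 CPM in Sham, at 415, 417, 426 and 453 CPM in MI, and at 419, 424, 424 and 498 CPM in MI + UA. Sham rat 12 was the lowest of all rats, and MI + UA rat 64 the highest, with the remaining MI + UA rats inside the MI range. The log2 fold change was -0.12 in MI versus Sham (95% interval from -0.29 to 0.05, edgeR adjusted p = 0.399). It was 0.04 in MI + UA versus MI (95% interval from -0.12 to 0.21) and -0.08 in MI + UA versus Sham (95% interval from -0.25 to 0.09). Ferritin genes have near-identical processed copies in the genome, so how the authors' counting split such reads is uncertain for Fth1.

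Set against Fth1 in the same library, Tf took 5.26 to 6.24 reads per 100 Fth1 reads in Sham, 6.76 to 7.41 in MI and 6.52 to 8.14 in MI + UA. The ratio was thus higher in every infarcted rat than in any Sham rat. The ratio of Tfrc to Fth1 overlapped between the groups, at 4.26 to 5.48 reads per 100 in Sham, 3.99 to 6.28 in MI and 5.18 to 6.17 in MI + UA. Neither ratio was tested.

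Hamp, the hepcidin gene, was measured at a low depth, with 225 counts in the 12 libraries together and 6 to 43 in each, so that differences of moderate size were not detectable. It stood at 0.753, 1.01, 1.43 and 2.16 CPM in Sham, at 1.10, 2.39, 2.85 and 3.50 CPM in MI, and at 0.899, 1.13, 1.22 and 2.17 CPM in MI + UA. In MI, 3 of the 4 rats were above all rats of the other groups, and MI rat 57, at 1.10 CPM, was within the range of both. MI versus Sham gave a log2 fold change of 0.93 (95% interval from 0.12 to 1.73, unadjusted p = 0.0262 and adjusted p = 0.140, both from edgeR).

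For MI + UA versus MI the log2 fold change of Hamp was -0.85 (95% interval from -1.59 to -0.11, unadjusted p = 0.0271 and adjusted p = 1.00, both from edgeR). It was -0.53 with rat 66 counted in MI, and from -1.22 (without MI + UA rat 29) to -0.64 (without MI rat 89) with a rat left out. In this comparison 0 of 7 members passed edgeR's adjusted threshold, beside 0% of all genes tested, and DESeq2 passed 0 members as well. At an unadjusted p under 0.05 it was 1 member, Hamp, beside 3.79% of all genes. MI + UA versus Sham gave 0.08 (95% interval from -0.77 to 0.92), and this sign turned without Sham rats 12 or 32 or MI + UA rat 29 (-0.28 without the last). The MI rats are part of both MI versus Sham and MI + UA versus MI, so that a high value in them moves the 2 comparisons in opposite directions.

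Liver markers were scarce in these libraries. Alb and Apoc3 had 2 counts each in all 12 libraries, Fga and Serpina1 had 0, Apoa1 had 26, and Ttr, the most abundant of the 6, had 248. The sum of the 2 that were tested, Ttr and Apoa1, was 2.26 ± 0.321 CPM (SD, n = 4) in Sham, 2.06 ± 0.710 CPM in MI and 2.50 ± 0.659 CPM in MI + UA.

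Part of the Hamp promoter is printed because it holds the known kinds of element through which bone morphogenetic protein and interleukin signals act on hepcidin. It lies on chr1:95300352-95300421 of GRCr8, minus strand, from 150 to 81 bases before the RefSeq start. Capitals mark GGCGCC, read by Smad complexes, at 129 bases, and a match to TTCNNNGAA, the motif of STAT factors, at 117 bases. An AGATAA on the other strand, at 148 bases, is left in lower case.
Hamp: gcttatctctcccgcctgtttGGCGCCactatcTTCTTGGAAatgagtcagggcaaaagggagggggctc
Of all promoters searched on both strands, 8.69% held GGCGCC and 7.67% held TTCNNNGAA. Fech and Tfrc also held the first and Alas1 the second, and the marked matches do not overlap each other.

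**Figure D2:**
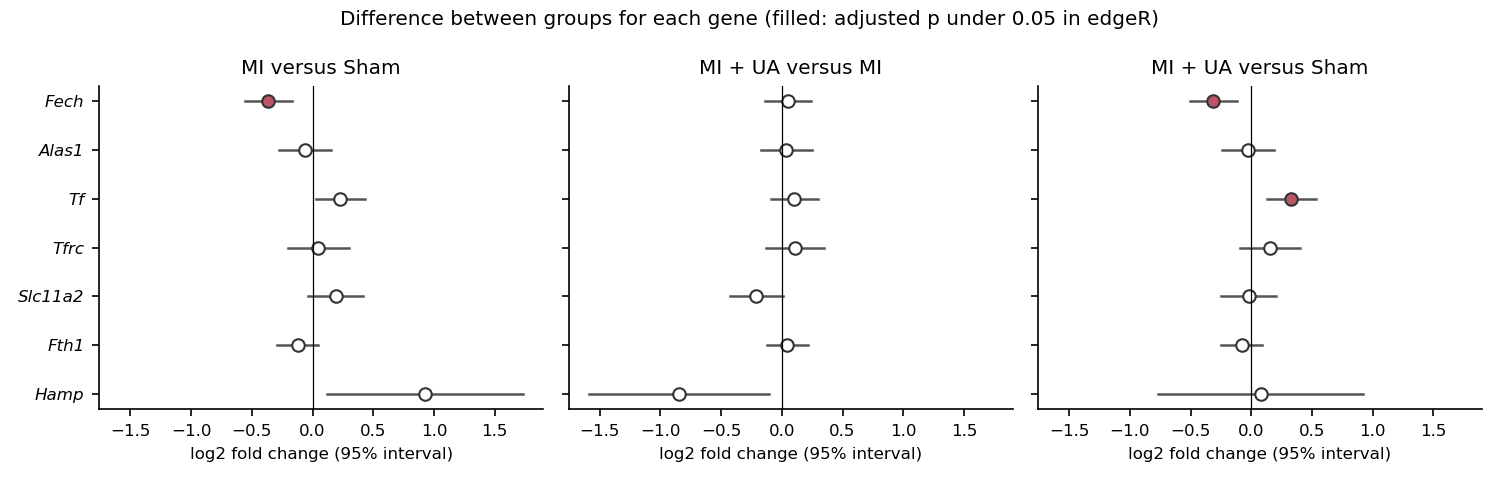
Log2 fold change of the 7 genes in MI versus Sham, MI + UA versus MI and MI + UA versus Sham, with 95% intervals from edgeR and filled points for an adjusted p under 0.05. Fech is filled in both comparisons with Sham and Tf in MI + UA versus Sham, no point is filled in MI + UA versus MI, and Hamp has the widest intervals.

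Taken over the 7 members, the median log2 fold change was 0.05 in MI versus Sham, 0.04 in MI + UA versus MI and -0.02 in MI + UA versus Sham. Over all genes tested these medians were 0.03, 0.00 and 0.02. In MI versus Sham the fold change was positive for 4 members and negative for 3, beside 53% and 47% of all genes. In MI + UA versus MI it was positive for 5 and negative for 2, beside 51% and 49%, and in MI + UA versus Sham positive for 3 and negative for 4, beside 52.3% and 47.7%. At an unadjusted p under 0.05, 3 members passed in MI versus Sham (Fech, Tf and Hamp), beside 23.9% of all genes, and 2 in MI + UA versus Sham (Fech and Tf), beside 21.8%.

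The other genes of these pathways were described from 7 lists with 83 symbols, 78 of them tested. In MI versus Sham, 4 rose and 11 fell, so that 15 of 78 passed, beside 11.4% of all genes tested (5.82% higher and 5.53% lower), and their median log2 fold change was -0.10. Heme synthesis had the lowest median, -0.33 over 10 genes, of which 9 had negative values, 3 fell and 0 rose. Mitochondrial iron transport and iron-sulfur assembly followed with a median of -0.26 over 22 genes, of which 21 had negative values, 7 fell and 0 rose. The lists for iron export and hepcidin control (median 0.36, 11 genes, 2 rose and 1 fell) and for iron uptake (median 0.31, 9 genes, 1 rose) had positive medians. Heme degradation and transport (median -0.04, 15 genes, 1 rose), storage and chaperones (median 0.04, 5 genes, 0 called, with 1 at an unadjusted p under 0.05) and iron sensing (median -0.11, 6 genes, 0 called, with 2 at an unadjusted p under 0.05) were closer to 0.

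Within heme synthesis, Alad, which joins the first precursor into porphobilinogen, fell by 0.75 on the log2 scale (standard error 0.17, edgeR adjusted p = 0.00639). The Sham rats had 6.90, 8.82, 9.09 and 10.4 CPM of Alad and the MI rats 4.98, 5.12, 5.21 and 5.64 CPM. Clpx, a mitochondrial unfoldase that acts on the enzyme encoded by Alas1, fell by 0.64 (standard error 0.09, edgeR adjusted p = 0.000132), from 85.5 ± 2.28 to 54.9 ± 2.26 CPM (SD, n = 4 each). Both genes had every MI rat below every Sham rat, as Fech did. In the heme degradation list, Hmox1, the inducible heme oxygenase, had a log2 fold change of -0.63 that did not pass (edgeR adjusted p = 0.0977), although its MI and Sham rats were separate, and it was named after its values were seen. It passed when only the 2 groups were fitted (edgeR adjusted p = 0.00307) or with no low-count filter (0.0194), and was -0.23 with rat 66 counted in MI.

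Of the iron-sulfur and mitochondrial iron genes, Glrx5, the glutaredoxin that hands on iron-sulfur clusters, fell by 0.55 (standard error 0.11, edgeR adjusted p = 0.00255). Hspa9, the mitochondrial chaperone of cluster transfer, fell by 0.53, from 179.9 ± 15.3 to 124.9 ± 9.08 CPM (SD, n = 4 each, edgeR adjusted p = 0.000403). The MI and Sham rats did not overlap for either gene.

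Among the genes that rose, Cp, encoding the ferroxidase ceruloplasmin that loads exported iron onto transferrin, had 10.5, 10.6, 13.1 and 17 CPM in Sham and 33.0, 36.1, 36.6 and 41.2 CPM in MI. The log2 fold change was 1.53 (standard error 0.18, edgeR adjusted p = 1.39e-05), the largest among the genes called in the 7 lists. Lrp1, the receptor for heme bound to hemopexin and for many other ligands, rose by 0.98 (standard error 0.10, edgeR adjusted p = 3.57e-06). Steap3, the endosomal ferrireductase that works ahead of Slc11a2, rose by 0.46 (edgeR adjusted p = 0.0335), a call lost without Sham rats 12, 32 or 38 or MI rats 61 or 89 (adjusted p from 0.0730 to 0.129). The calls of Cp and Lrp1 held without any single rat.

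In the list for iron export and hepcidin control, 10 of the 11 tested genes had positive values, and Hjv was the 1 below 0. Bmp6, the ligand that induces Hamp in the liver, rose by 0.60 (standard error 0.18, edgeR adjusted p = 0.0372), from 13.9 ± 2.31 to 21.1 ± 2.10 CPM (SD, n = 4 each). It lost the call without Sham rats 12, 32 or 38 or MI rats 57, 61 or 89 (adjusted p from 0.0590 to 0.136), and with rat 66 counted in MI (0.184). Hjv, hemojuvelin, a co-receptor for that ligand that is abundant in striated muscle, fell by 0.52 (standard error 0.09, edgeR adjusted p = 0.000781), from 69.7 ± 3.87 to 48.6 ± 4.69 CPM (SD, n = 4 each).

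In MI + UA versus MI, 0 of the 78 genes passed the adjusted threshold in edgeR, and 4 had an unadjusted p under 0.05, 2 in each direction, beside 3.79% of all genes. DESeq2 also passed 0 of them. The smallest unadjusted p was that of Bmp6, with 11.2, 11.9, 14.2 and 22.2 CPM in MI + UA and 18.2, 21.3, 21.5 and 23.3 CPM in MI, and its log2 fold change was -0.48 (standard error 0.17, unadjusted p = 0.0125, adjusted p = 1.00 from edgeR). Of the MI + UA rats, 3 lay below all MI rats. The fold change of Bmp6 was -0.18 with rat 66 counted in MI and -0.34 without it, and -0.77 without MI + UA rat 29. Iba57, a factor of iron-sulfur assembly, gave -0.49 (unadjusted p = 0.0404) and Hspa9 0.19 (unadjusted p = 0.0415), both with an adjusted p of 1.00 in edgeR, and with rat 66 counted in MI they gave -0.32 and 0.07. Hmox1 was the remaining gene of the 4, at 0.49 (unadjusted p = 0.0459, adjusted p = 1.00 from edgeR), the opposite sign to its MI versus Sham value, and its MI + UA rats spread from 15.7 to 45.9 CPM around the 17.7 to 20.4 CPM of the MI rats. The highest was rat 66, and the fold change of Hmox1 was 0.03 without that rat and -0.37 with it counted in MI.

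Compared with Sham, the MI + UA rats had 13 of the 78 genes past the threshold, 3 higher and 10 lower, beside 9.44% of all genes. Cp (log2 fold change 1.43, edgeR adjusted p = 4.12e-05), Lrp1 (0.95, adjusted p = 5.61e-06) and Steap3 (0.51, adjusted p = 0.0208) rose. Alad, Hjv, Clpx and Glrx5 fell by 0.61, 0.55, 0.55 and 0.54 on the log2 scale, with edgeR adjusted p of 0.0252, 0.000555, 0.000664 and 0.00338. Rbck1, a subunit of a ubiquitin ligase linked to the turnover of an iron regulatory protein, fell by 0.38 (edgeR adjusted p = 0.0193). Leaving out single rats took Steap3 (Sham rats 12, 32 and 38, MI + UA rat 64), Alad (Sham rats 17, 32 and 38, MI + UA rat 64) and Rbck1 (Sham rat 32, MI + UA rats 58 and 64) over the threshold, to adjusted p between 0.0508 and 0.0924. The count of 13 dropped to 7 without Sham rat 32, Sham rat 38 or MI + UA rat 64. Over all genes tested, the calls fell as well, from 1716 to 1258, 1152 and 1243 without those rats in turn.

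**Figure D3:**
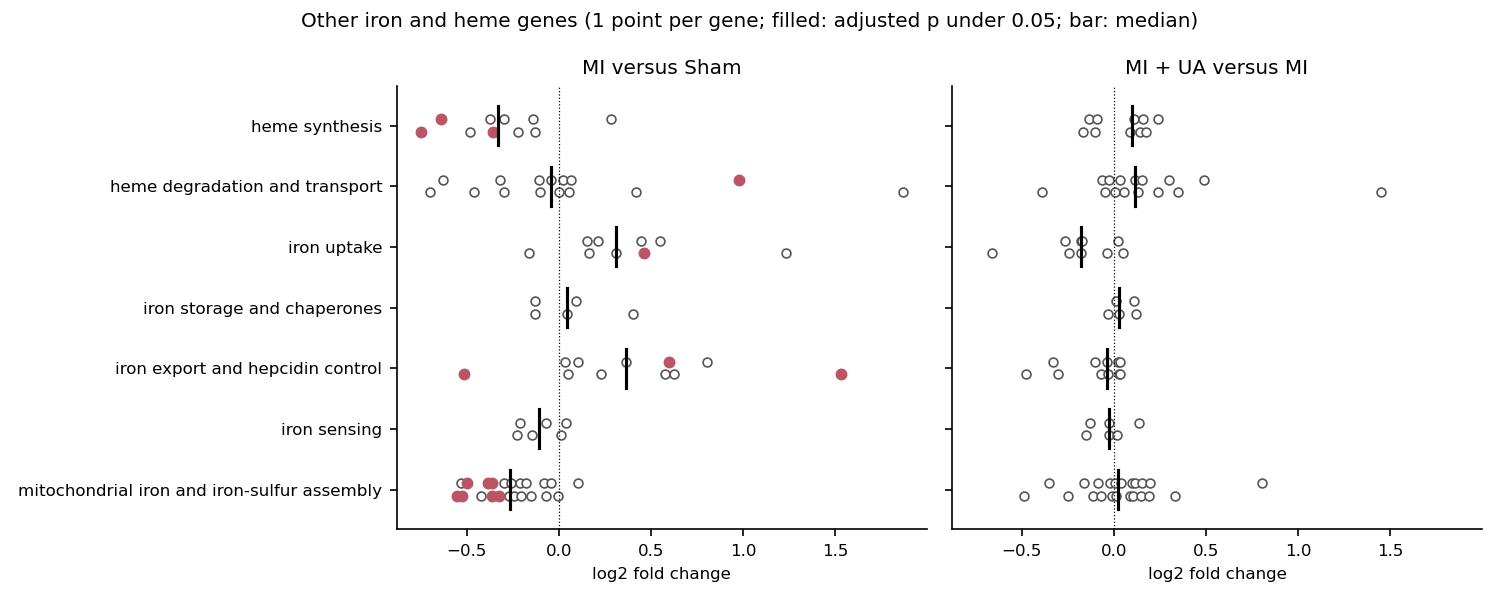
Log2 fold change of each tested gene of the 7 pathway lists in MI versus Sham and in MI + UA versus MI, with 1 point per gene, filled where the edgeR adjusted p was under 0.05, and a bar at each list's median. In MI versus Sham the heme synthesis and the mitochondrial lists lie mostly below 0, with 3 and 7 filled points, and in MI + UA versus MI no point is filled.

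Genes whose log2 CPM followed each member most closely over the 12 rats were listed by Pearson's r among 10929 genes, as a description, since the points share the group differences and the library. Fech was followed by Ivd (r = 0.960), an enzyme of leucine breakdown in mitochondria, Itga7 (0.9496), the laminin-binding integrin of muscle, and Gapdh (0.932), a glycolytic enzyme. Tf was followed by Col15a1 (0.949), a collagen of basement membranes, Klf13 (0.948), a transcription factor, and Zcchc24 (0.945). The first genes for the other members were Agpat1 for Alas1 (0.907), Lmln for Slc11a2 (0.891), Syngr1 for Fth1 (0.888), Hist2h3c2 for Hamp (0.845) and Slco3a1 for Tfrc (0.784). Tfrc thus had the weakest and Fech the strongest nearest neighbour of the 7.

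Some of the cell type marker sums, taken over those tested in each list, also separated the infarcted groups from Sham. In bulk RNA, fewer cells of a type cannot be told apart from less RNA of its markers per cell. The summed cardiomyocyte markers were 16536 ± 1563 CPM (SD, n = 4) in Sham, 11030 ± 335 CPM in MI and 12146 ± 1039 CPM in MI + UA, and 6 of 7 tested markers fell in MI versus Sham. Much of these differences lay in Myh6, the marker with the most counts, which averaged 5863 CPM in Sham, 2771 in MI and 3626 in MI + UA. Actc1 did not pass in MI versus Sham (edgeR adjusted p = 0.167). The cardiomyocyte sum was lower in all MI rats (10695 to 11484 CPM) and all MI + UA rats (11117 to 13427 CPM) than in all Sham rats (15019 to 18364 CPM), as the level of Fech was. Its part in the lower Fech, Alad, Clpx, Glrx5, Hspa9 and Hjv was not tested.

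Macrophage markers summed to 107 ± 11.9 CPM in Sham, 215 ± 28.8 CPM in MI and 201 ± 35.1 CPM in MI + UA, and 9 of 10 rose in MI. Fibroblast markers summed to 1299 ± 130.1 CPM in Sham, 2860 ± 566 CPM in MI and 3014 ± 672 CPM in MI + UA (SD, n = 4 in each group), and 6 of 7 rose in MI. Col3a1, the fibroblast marker with the most counts, averaged 456 CPM in Sham and 1246 CPM in MI, while Dcn did not pass (edgeR adjusted p = 0.328). The ranges of the macrophage and fibroblast sums in the infarcted groups lay above the Sham range, as those of Tf and Cp did. Schwann cell and oligodendrocyte markers, listed because oligodendrocytes are a known source of transferrin, summed to 60.3 ± 3.46 CPM in Sham (56.3 to 64.5 CPM), 101 ± 14.3 CPM in MI (81.2 to 114 CPM) and 115 ± 33.3 CPM in MI + UA (90.4 to 164 CPM). Of these 6 markers, 2 rose in MI. The part of these cell types in Tf and Cp was not tested.

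Blood left in the sections would carry red cell transcripts, so erythroid markers were set beside Tfrc, Alas1 and Fech. Hba-a2, an alpha globin, made up most of their sum (578 of 617 CPM on average in Sham). They summed to 411 to 922 CPM in Sham, 311 to 659 CPM in MI and 379 to 766 CPM in MI + UA, and 0 of 10 tested markers passed in MI versus Sham in edgeR, at an unadjusted p under 0.05 as well. Between MI + UA and MI, 0 of 10 passed in edgeR and 2 had an unadjusted p under 0.05, both with positive values. These were Hba-a3 (log2 fold change 1.61, unadjusted p = 0.0398 from edgeR) and Slc4a1 (0.59, unadjusted p = 0.0346 from edgeR), named after their values were seen, and with rat 66 counted in MI they gave 1.02 and 0.37. Without MI rat 89, Hba-a3 gave 3.28 and Slc4a1 0.39. The share of all erythroid markers in gene counts averaged 0.0565% in Sham, 0.0522% in MI and 0.0597% in MI + UA. Neither MI versus Sham (two-sided exact permutation p = 0.714) nor MI + UA versus MI (p = 0.600 in the same exact test) passed 0.05. The smallest p that 4 against 4 rats allow is 0.0286, so a difference could be missed. Endothelial markers summed to 639 ± 36.2 CPM in Sham, 556 ± 40.2 CPM in MI and 534 ± 36.9 CPM in MI + UA, and 1 of 6 fell in MI. Their sum was lower in all MI rats (496 to 581 CPM) and all MI + UA rats (481 to 566 CPM) than in all Sham rats (599.9 to 674 CPM). As a share of all gene counts, without TMM scaling, the groups overlapped (0.0572% to 0.0611% in Sham, 0.0463% to 0.0660% in MI and 0.0502% to 0.0577% in MI + UA). Without TMM scaling, Fech overlapped between Sham and MI too. It had 771 of 12743184 gene counts in MI rat 36 and 448 of 7643941 in Sham rat 17, a smaller share. The part of the endothelial sum in the lower Fech was not tested.

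**Figure D4:**
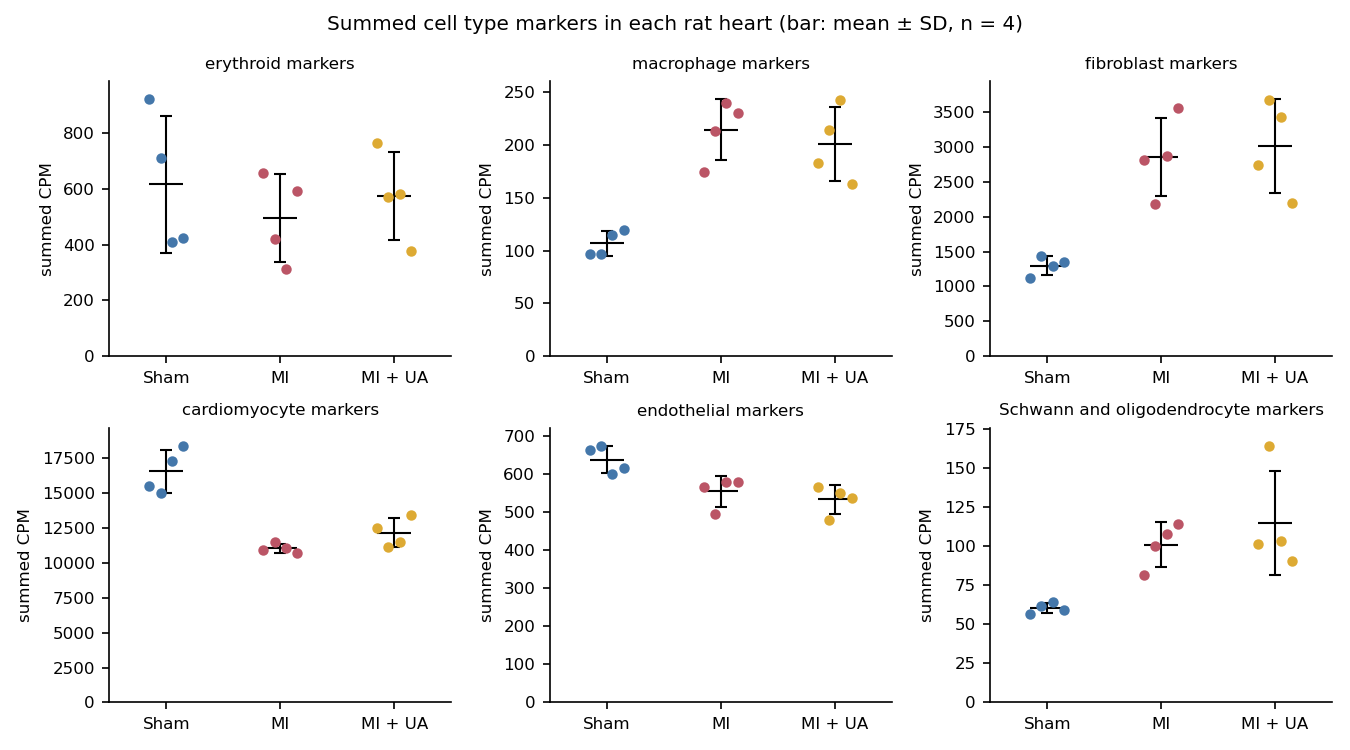
Summed CPM of 6 cell type marker lists in each rat (linear axes from 0), with 1 point per rat and bars for the mean ± SD of 4 rats. Cardiomyocyte and endothelial markers are lower, and macrophage, fibroblast and Schwann cell markers higher, in all infarcted rats than in all Sham rats on the CPM scale, while endothelial shares of all gene counts overlap between the groups and erythroid markers overlap between the 3 groups.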

How the data were processed

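RNA-seq libraries of 12 rat hearts were analysed, 4 Sham, 4 MI and 4 MI + UA. The labels give the molecule as polyA RNA, while the protocol describes depletion of ribosomal RNA and strand-specific libraries. Per the submitters' processing notes, the reads were mapped with STAR 2.6.1c to mRatBN7.2 and counted with HTSeq, and MultiQC 1.8 was listed. The annotation was Ensembl 108. The authors deposited raw counts per gene, without normalization. The strand setting of the counting is not given in the sources used here. The 5 summary lines of the counter were left out.

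Genes with at least 10 counts in total (18182 of 30560) were tested with edgeR 4.0.16 (R 4.3.3) by its quasi-likelihood test, with TMM scaling, the 3 groups in 1 fit and Benjamini-Hochberg adjustment over all genes tested. A gene is called to rise or fall at an adjusted p under 0.05. The test was checked on simulated counts. CPM values use the TMM-scaled library sizes. Marker shares were compared with exact permutation tests over rats (scipy 1.17.1). Each rat is 1 library, and no batch is given in the labels. The study left out 1 further MI + UA library, which was not analysed here, and its sources differ on the dose and the start of treatment.

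The 9 members and the lists were chosen with earlier results of these data known. Genes of the 7 pathway lists were named when called, up to 6 in each direction by log2 fold change with an average log2 CPM of at least 1, or, with 0 called, as the 3 with the smallest p. Some genes that met this rule are not reported here. For each member the 3 genes with the highest r over the rats were taken. The settings varied were the tool (DESeq2 1.42.0), the scaling (size factors of DESeq2 inside edgeR, TMM without the 13 mitochondrially encoded genes), other low-count filters, only the 2 groups compared, rat 66 in MI, and each rat left out in turn. The same settings were applied to the named list genes, a choice made after seeing the data. Promoters are from RefSeq (GRCr8), matched by symbol, and figures were drawn with matplotlib 3.10.9. Counting and rat-to-rat spread set the precision, and Hamp had the lowest counts of the members tested.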

Additional observations from a re-analysis of the deposited data

Results flagged for a closer look

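A single rat lay far from the other 3 of its group for several iron and heme genes. The measure was its gap to the nearest rat divided by the range of the group, against Dixon's 95% limit for groups of 4. Both were taken on log2 CPM for genes and on summed CPM for the cell type marker lists. The 75 groups examined cover the members, the list genes named by the rule and the marker sums. Chance flags about 1 in 20 groups, or 3.75 of the 75, a figure that is not for genes alone. Above the limit were 8 groups, all of them for genes.

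Among the members, Alas1 was low in Sham rat 12 (ratio 0.914, at 66.9 CPM beside 91.4 to 94.1) and in MI rat 89 (ratio 0.871, at 73.0 CPM beside 84.7 to 86.5). Fth1 was high in MI + UA rat 64 (ratio 0.933, at 498 CPM beside 419 to 424). Slc11a2 was low in MI + UA rat 58 (ratio 0.963, at 13.9 CPM beside 18.3 to 18.5). Tf was low in MI rat 36 (ratio 0.842), although its 29.1 CPM was close to the 30.6 to 30.9 CPM of the others.

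Of the other pathway genes, Glrx5 was low in MI rat 89 (ratio 0.836, at 17.5 CPM beside 21.8 to 22.7). Iba57 was high in MI + UA rat 64 (ratio 0.975, at 4.06 CPM beside 2.80 to 2.83), and Rbck1 was low in MI rat 57 (ratio 0.855, at 19.9 CPM beside 24.8 to 25.7).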

How the results depend on the processing

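Of 315 values that the alternatives gave for the 21 member fold changes, 283 kept their direction and side of the threshold, 17 lost the call and 15 changed sign. The number of members called in MI versus Sham was 1 and ranged from 0 to 1 with a rat left out. In MI + UA versus Sham it was 2, fell to 1 when only the 2 groups were fitted (Tf lost) and to 1 with rat 66 counted in MI (Fech lost), and ranged from 0 to 1 with a rat left out. The adjusted p of Fech in MI versus Sham ran from 0.00293 (DESeq2) to 0.0580. The pathway lists had 11 to 16 genes called in MI versus Sham and 7 to 13 in MI + UA versus Sham with a rat left out, against 15 and 13. Over all genes tested, the calls then ranged from 1467 to 1941 in MI versus Sham, against 2064. In MI + UA versus Sham they ranged from 1152 to 1895, against 1716. In MI + UA versus MI, 0 members and 0 list genes were called under any of the alternatives. For the members, sign changes came only from leaving out a rat. The log2 fold changes then ranged from -0.034 to 0.15 for Tfrc in MI versus Sham (positive with all rats, negative without MI rats 57 or 61). In MI + UA versus MI they ranged from -0.019 to 0.073 for Fth1 (negative without MI + UA rat 64), from -0.019 to 0.067 for Alas1 (negative without MI + UA rat 29 or MI rat 89) and from -0.028 to 0.094 for Fech (negative without MI + UA rat 29). In MI + UA versus Sham they ranged from -0.28 to 0.39 for Hamp, from -0.13 to 0.019 for Alas1 (positive without Sham rats 17, 32 or 38 or MI + UA rat 58) and from -0.050 to 0.062 for Slc11a2. The erythroid share in MI minus Sham ranged from -0.0105 to 0.00425 percentage points with a rat left out and was positive without MI rats 57 or 61 or Sham rat 12. It was -0.00428 with all rats, -0.00765 with rat 66 counted in MI and -0.0188 as a share of counts on genes not encoded in mitochondria. For MI + UA minus MI it was 0.00749, 0.0190 and 0.0167 under those alternatives, and 0.00166 to 0.0156 with 1 rat left out. The causes were not tested. The same alternatives were added for the named list genes after their values were seen, and of these Hmox1 alone changed sign, from 0.49 to -0.37 in MI + UA versus MI with rat 66 counted in MI. No paired analysis was possible because each rat belongs to a single group. With 4 rats a group and 225 counts, Hamp allows only large differences to be detected.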
